A study of Mus musculus with 22 samples.

Results

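Oxidative phosphorylation was followed at the level of 107 protein-coding genes, chosen by symbol among the 39056 genes of the count table: the 13 proteins that the mitochondrial genome encodes (symbols starting mt-) and 94 nuclear genes whose symbols start with Ndufa, Ndufb, Ndufc, Ndufs, Ndufv, Uqcr, Atp5 or Cox4 to Cox8, or are Sdha to Sdhd or Cyc1. Of the nuclear genes, 8, the Ndufaf genes, encode complex I assembly factors, and the other 86 were taken as structural by symbol alone. The RNA came from the PFC of 11 male mice aged 8 to 12 weeks, and each mouse gave a TRAP and a total-RNA library, so that 22 libraries formed 6 groups. The question was which RNAs the tagged ribosomes, made where the CaMKIIα promoter is active, held relative to the lysate they came from, and whether EtOH alone or EtOH with the PARP inhibitor ABT-888 changed this.

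All mice, controls included, were C57BL/6J-background offspring that carried both the tetO-EGFP/Rpl10a and the CaMKIIα-tTA transgenes, so that the EGFP-tagged ribosomal protein was made in cells in which the CaMKIIα promoter was active. Control mice (n = 3, mice 1, 4 and 7) received saline, EtOH mice (n = 4, mice 2, 5, 8 and 9) received EtOH at 2 g/kg per day over 4 days with 2 injections per day, and EtOH+ABT-888 mice (n = 4, mice 3, 6, 10 and 11) received the same EtOH and, on day 4, ABT-888 at 25 mg/kg. Tissue was taken 2 h after the last injection. TRAP libraries held 6570957 to 22002618 counted reads and total-RNA libraries 22132534 to 32421392. Levels are given as CPM, counts scaled to a common library size with TMM factors, and a gene was called when its Benjamini-Hochberg adjusted p in edgeR's quasi-likelihood test was under 0.05 over the 14072 genes that held at least 500 counts in total and were detected in at least 3 libraries. All 13 mitochondrion-encoded and 87 of the 94 nuclear-encoded genes were tested.

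As background, oxidative phosphorylation passes electrons from NADH and succinate through complexes I, II, III and IV of the inner mitochondrial membrane, and the proton gradient so built drives ATP synthase, complex V. Complex II is entirely nuclear-encoded, while the other complexes mix subunits from both genomes. Nuclear mRNAs are translated by cytosolic ribosomes, of which Rpl10a is a large-subunit protein, whereas mitochondrial mRNAs are transcribed from the organelle's circular genome and translated inside it by mitochondrial ribosomes made of Mrpl and Mrps proteins. Neurons depend on this pathway for the ATP that ion pumping and synaptic transmission consume.

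Mitochondrial mRNAs use a genetic code of their own, in which TGA is read as tryptophan and not as a stop, and 96 such in-frame codons lie in the 13 mitochondrial coding sequences, from 0 in mt-Nd4l to 17 in mt-Co1. The following stretches of 60 bases, read 5′ to 3′ in frame from the GENCODE M21 transcripts of mm10, show the first of them, in capitals, in mt-Co1 (chrM:5328-5387, plus strand, from the start codon) and in mt-Nd6 (chrM:13786-13845, minus strand), chosen as the mitochondrial gene with the most reads and as the one gene encoded on the other strand.
mt-Co1: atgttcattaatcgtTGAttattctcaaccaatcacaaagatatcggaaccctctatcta
mt-Nd6: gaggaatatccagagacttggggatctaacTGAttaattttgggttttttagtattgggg

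Mitochondrial transcripts took a far smaller part of TRAP than of total-RNA in every mouse. The 13 genes together received 3.81%, 5.99% and 7.82% (lowest, median and highest) of the counted reads of the 11 total-RNA libraries, and 0.152%, 0.355% and 0.636% of those of the 11 TRAP libraries. The lowest total-RNA library was above the highest TRAP library. Within a mouse the share was 6.14-fold to 35.9-fold lower in TRAP, with a median of 18.7-fold, and the mice at the ends of this range were mouse 3 (3.81% and 0.62%) and mouse 5 (5.46% and 0.152%). The 95% Wilson intervals of these shares were at most 0.0208 percentage points wide and cover counting error only.

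The nuclear structural genes went the other way. Together they received 0.758%, 0.875% and 0.906% of the reads in total-RNA and 1.14%, 1.28% and 1.44% in TRAP, higher in TRAP in each of the 11 mice. The log2 ratio of mitochondrial to nuclear reads was therefore lower in TRAP than in total-RNA by a median of 4.75 within a mouse (log2 difference -4.75, range -5.84 to -3.04, SD 0.93, n = 11). With the 6 mitochondrial genes that share under 10% of their sequence with an annotated nuclear transcript, the median was -4.97. The treatments did not separate on either share: in TRAP the mitochondrial share was 0.306% ± 0.135 (SD, n = 3) in Control, 0.341% ± 0.214 (n = 4) in EtOH and 0.397% ± 0.179 (n = 4) in EtOH+ABT-888, and in total-RNA it was 5.91% ± 0.554, 6.09% ± 1.33 and 5.87% ± 1.77.

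**Figure D1:**
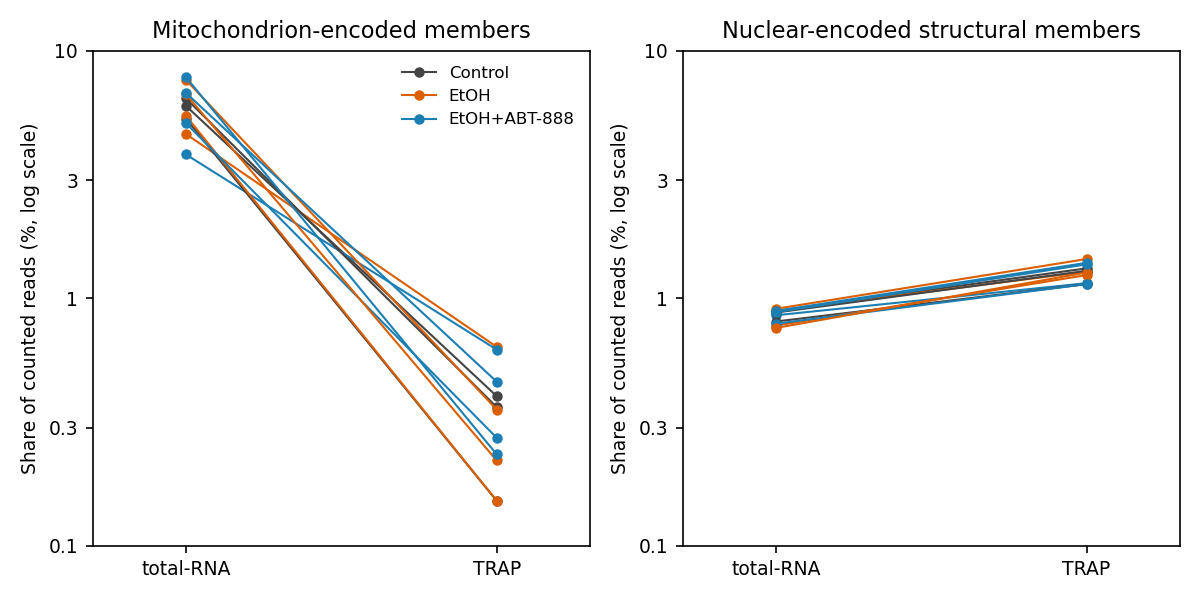
Share of counted reads (percent, log scale) in the total-RNA and TRAP library of each of 11 mice, coloured by treatment, for the 13 mitochondrion-encoded genes (left) and the 86 nuclear-encoded structural genes (right). Every line falls from total-RNA (3.81% to 7.82%) to TRAP (0.152% to 0.636%) on the left, and every line rises on the right.

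The 4 TRAP libraries with the largest mitochondrial share also had the highest sums of glial and vascular markers. The share was highest in mice 2, 3, 11 and 1 (0.636%, 0.62%, 0.46% and 0.402%), and the summed level of 24 astrocyte, oligodendrocyte, microglia and endothelial or pericyte markers was highest in the same 4 TRAP libraries (984, 1081, 1691 and 593 CPM). In the other 7 mice the share was 0.152% to 0.363% and the sum 387 to 552 CPM. Astrocyte markers alone did not split the mice in this way, at 116 CPM in mouse 1 and 118 in mouse 7. The part of these markers in the share was not tested.

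The separation of TRAP from total-RNA by cell type was as follows. Each of the 24 markers was lower in TRAP, and none was at 0 in any group: the summed astrocyte level was 42.8 to 206 CPM in TRAP against 969 to 1210 in total-RNA, the oligodendrocyte level 317 to 1490 against 1725 to 3056, the microglia level 4.08 to 37.6 against 59 to 240 and the endothelial and pericyte level 5.45 to 29.4 against 86.3 to 138. All 6 nuclear-retained RNAs (such as Malat1) were lower as well, at 584 to 1706 CPM against 3342 to 7518. The labelled cell type was less clear among neurons: of 6 excitatory markers Nrgn was higher in TRAP (log2 fold change 1.17), 4 were lower, and Camk2a did not pass (-0.05, adjusted p = 0.599), while of 6 inhibitory markers 3 were higher and 2 lower. The summed excitatory level was 4160 to 5915 CPM in TRAP against 4257 to 5434 in total-RNA, overlapping, and the summed inhibitory level was 1632 to 2129 against 754 to 1008, higher in TRAP without overlap.

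Gene by gene, the mitochondrial mRNAs were lower in TRAP without exception. Over all mice, with treatment as a term in the fit, the 8 well-counted genes were all called lower, where 69.5% of all genes tested were called, 35.8% higher and 33.7% lower. The other 5, mt-Co2, mt-Co3, mt-Atp6, mt-Atp8 and mt-Nd4l, were called lower too, but passed the filter through their total-RNA reads alone, so that their calls add no support. No TRAP library reached the lowest total-RNA library for any of the 8, which held for 14.2% of all genes in this direction. For the 8 well-counted genes the median log2 fold change was -4.12, a 17.4-fold lower level.

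The mRNA of mt-Co1 (chrM:5328-6872), the catalytic subunit of complex IV, was at 611, 1080 and 2050 CPM in TRAP (lowest, median, highest of 11) and at 12300, 14700 and 20100 in total-RNA. That of mt-Cytb (chrM:14145-15288), cytochrome b of complex III, was at 234, 622 and 1410 CPM against 8210, 15100 and 18900. Their log2 fold changes were -3.70 (SE 0.20, adjusted p = 6.5e-14) and -4.35 (SE 0.30, adjusted p = 5.68e-12). In both genes the highest TRAP libraries were those of mice 2 and 3.

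Complex I takes 7 subunits from the mitochondrial genome, all of the proton-pumping membrane arm. Among them mt-Nd1 was at 215, 509 and 868 CPM in TRAP against 5990, 10800 and 16600 (log2 fold change -4.49), mt-Nd2 at 104, 293 and 509 against 2540, 5740 and 7280 (-4.19), and mt-Nd4 at 87.9, 232 and 503 against 2110, 4950 and 5660 (-4.06). The range of mt-Nd5 was 201 to 1120 CPM against 3530 to 12400 (-3.82). In all 4 the highest TRAP library was below the lowest total-RNA library.

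Among the 8 well-counted genes, the ends of the range were mt-Nd3 and mt-Nd6. mt-Nd3 (chrM:9459-9806) was at 1.76, 6.74 and 9.76 CPM in TRAP and 170, 361 and 596 in total-RNA, a log2 fold change of -5.75 (SE 0.29, adjusted p = 1.69e-14). mt-Nd6 (chrM:13552-14070), the one protein read from the other strand of the mitochondrial genome, was at 37.6, 71.3 and 111 CPM against 351, 448 and 502, a log2 fold change of -2.61 (SE 0.16, adjusted p = 3.73e-13). Of these 8 genes, mt-Nd3 had the lowest TRAP to total-RNA ratio in 11 of 11 mice and mt-Nd6 the highest in 10, with mt-Nd5 highest in the other. mt-Nd6 made up a median of 0.727% of the mitochondrial reads in total-RNA and 1.95% in TRAP, and mt-Nd3 0.665% and 0.187%. The annotated ends of mt-Nd5 and mt-Nd6 overlap on opposite strands, and the strand setting of the counting is not given in the sources used here.

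**Figure D2:**
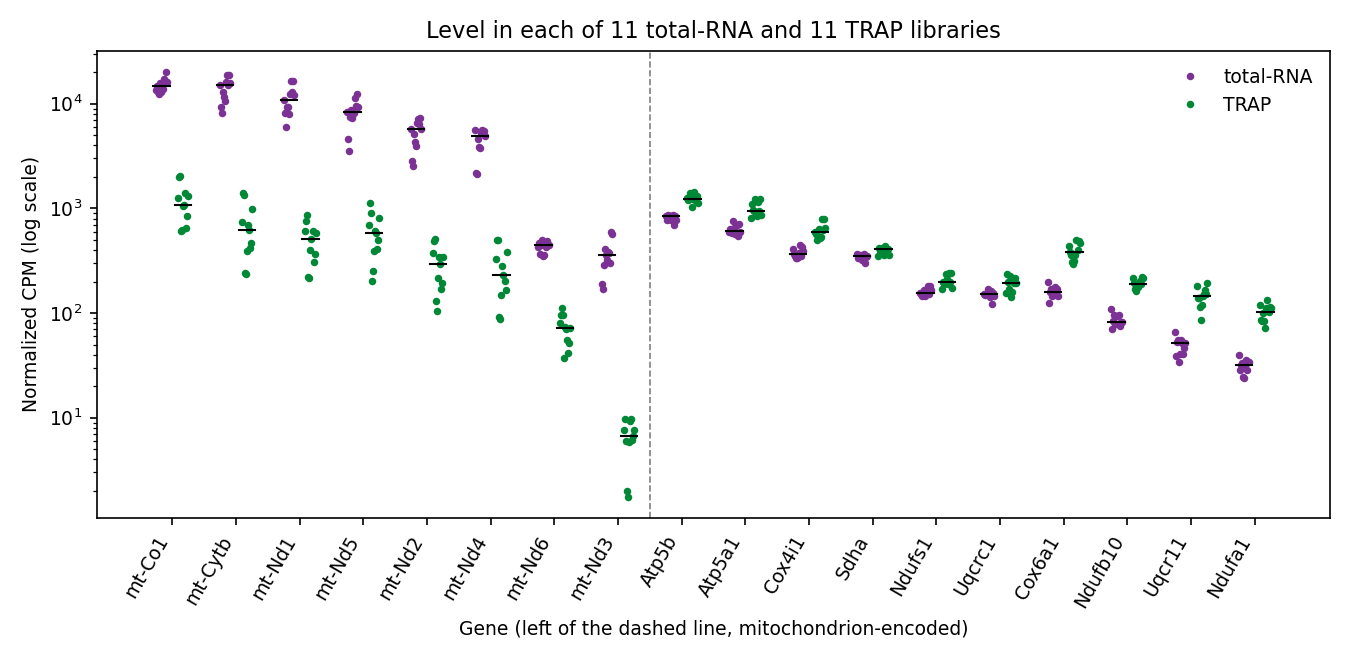
Normalized CPM (log scale) of 8 mitochondrion-encoded genes (left of the dashed line) and 10 nuclear-encoded genes in each of 11 total-RNA and 11 TRAP libraries, with bars at the medians. TRAP lies below total-RNA without overlap for the mitochondrial genes, from mt-Co1 (611 to 2050 against 12300 to 20100 CPM) to mt-Nd3, and above it for the median of every nuclear gene drawn.

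The other 5 mitochondrial genes were almost uncounted. Over the 11 total-RNA libraries together, mt-Co2 received 1794 reads, mt-Co3 1544, mt-Atp6 2139, mt-Atp8 516 and mt-Nd4l 4470, and over the 11 TRAP libraries 35, 25, 31, 3 and 124. Per kilobase of transcript, the median total-RNA level was 8.79 CPM for mt-Co2 and 9542 for mt-Co1, subunits of the same complex. The pooled level of mt-Nd4l was 20.2-fold lower in TRAP (95% Poisson interval 16.9 to 24.3), that of mt-Co2 28.7-fold (20.6 to 41.2), that of mt-Co3 34.6-fold (23.4 to 53.4) and that of mt-Atp6 38.6-fold (27.2 to 56.9). For mt-Atp8, 9 of 11 TRAP libraries were at 0, and the pooled ratio was 96.3 (32.9 to 467). Single libraries weighed heavily on 2 of these ratios: the TRAP library of mouse 2 held 17 of the 35 reads of mt-Co2, and without that mouse the ratio was 53.5 (33.9 to 90.3), and mouse 7 held 2 of the 3 reads of mt-Atp8, and without it the ratio was 257 (46.2 to 10164). These intervals treat reads as independent and leave out the spread between mice.

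Sequence shared with the nuclear genome is given beside these levels. A stretch of mitochondrial DNA inserted on chromosome 1 carries 7 annotated copies of mitochondrial genes between chr1:24611535-24616197 (minus strand), and 50-base stretches, the length of one sequenced read, of mt-Co2 (100%), mt-Co3 (99.9%), mt-Atp6 (99.5%), mt-Nd4l (98.8%) and mt-Nd3 (98%) also occur in an annotated nuclear transcript. The shares were 62.2% for mt-Nd4 and 51.1% for mt-Co1, 8.2% and 7.6% for mt-Nd2 and mt-Nd5, and 0 for mt-Nd1, mt-Cytb, mt-Nd6 and mt-Atp8. Only annotated transcripts were searched, so a share of 0 does not mean that no nuclear copy exists. In the mitochondrial genome mt-Atp8 lies between mt-Co2 and mt-Atp6. The bases between their copies, from the end of Gm10925 (chr1:24614651) to the start of Gm28661 (chr1:24614885), lie outside both annotated copies. Over their 681 aligned bases mt-Co2 and its copy Gm28661 have 0 mismatches, and their first 60 bases are shown because the 2 cannot be told apart by sequence (chrM:7013-7072, plus strand, and chr1:24615506-24615565, minus strand, both mm10).
mt-Co2: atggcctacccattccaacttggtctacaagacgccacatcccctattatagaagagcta
Gm28661: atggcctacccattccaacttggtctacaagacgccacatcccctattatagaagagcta

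**Figure D3:**
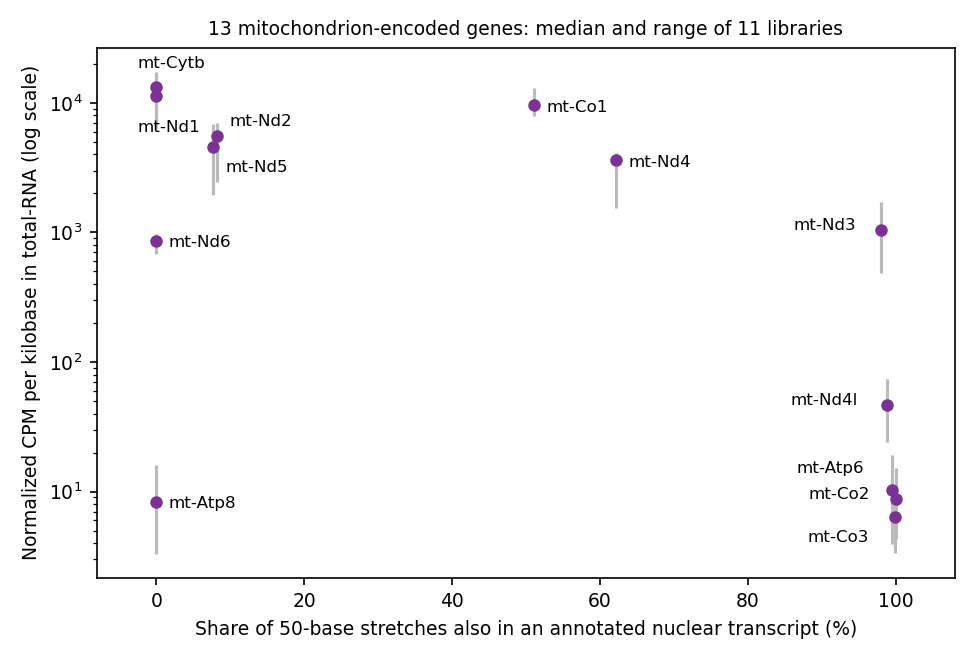
Normalized CPM per kilobase in total-RNA (log scale, median and range of 11 libraries) of the 13 mitochondrion-encoded genes against the percentage of their 50-base stretches that also occur in an annotated nuclear transcript. mt-Co2, mt-Co3, mt-Atp6 and mt-Nd4l lie at 98.8% to 100% with medians of 6.41 to 46.8, mt-Nd3 lies at 98% with a median of 1038, and mt-Atp8 lies at 0% with 8.33.

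Of the 7 copies, 4 received more reads than the mitochondrial genes they match: Gm28661 held 27190 over all 22 libraries against 1829 for mt-Co2, Gm28437 29996 against 1569 for mt-Co3, Gm10925 42576 against 2170 for mt-Atp6, and Gm10222 5714 against 4594 for mt-Nd4l. The other 3 received fewer: Gm28438 held 3270 against 117108 for mt-Nd3, Gm28439 12072 against 1429042 for mt-Nd4, and Gm29216 20153 against 4992220 for mt-Co1. The 7 copies together were at 300, 474 and 550 CPM in total-RNA and at 8.5, 22.7 and 50.4 in TRAP. All 7 were called lower in TRAP, where 33.7% of all genes were. Their median log2 fold change was -4.35 (range -5.03 to -3.32), within the range of the mitochondrial genes. Of these copies, Gm28438, Gm10222 and Gm28439 had medians of only 0.312, 0.806 and 2.01 CPM in TRAP. These 3 passed the filter mainly through their total-RNA reads, so that their calls add no support. How the counting treated reads that map to several places is not given in the sources used here, and its part in the counts of these 5 genes and of the copies was not tested.

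Nuclear-encoded genes of the same complexes were, with few exceptions, more abundant in TRAP. Of 87 tested, 80 were called higher, 1 lower and 6 did not pass, where 35.8% of all genes were called higher and 33.7% lower, and their median log2 fold change was 0.69 (1.61-fold) where that of all 14072 genes was 0.05. TRAP lay wholly above total-RNA, 11 libraries against 11, for 42 of the 87 genes, against 11% of all genes tested. By complex, 7 of 7 core and 27 of 29 accessory complex I genes were higher (median 0.57 and 0.73), 4 of 4 of complex II (0.41), 8 of 9 of complex III (0.49), 11 of 13 tested of complex IV (0.78), 16 of 17 of complex V (0.68) and 7 of 8 complex I assembly factors (0.48). The 6 that did not pass were Ndufa10, Ndufa12, Uqcrc2, Cox7b, Atp5s (-0.22, adjusted p = 0.126) and Ndufaf1 (-0.02, adjusted p = 0.90).

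**Figure D4:**
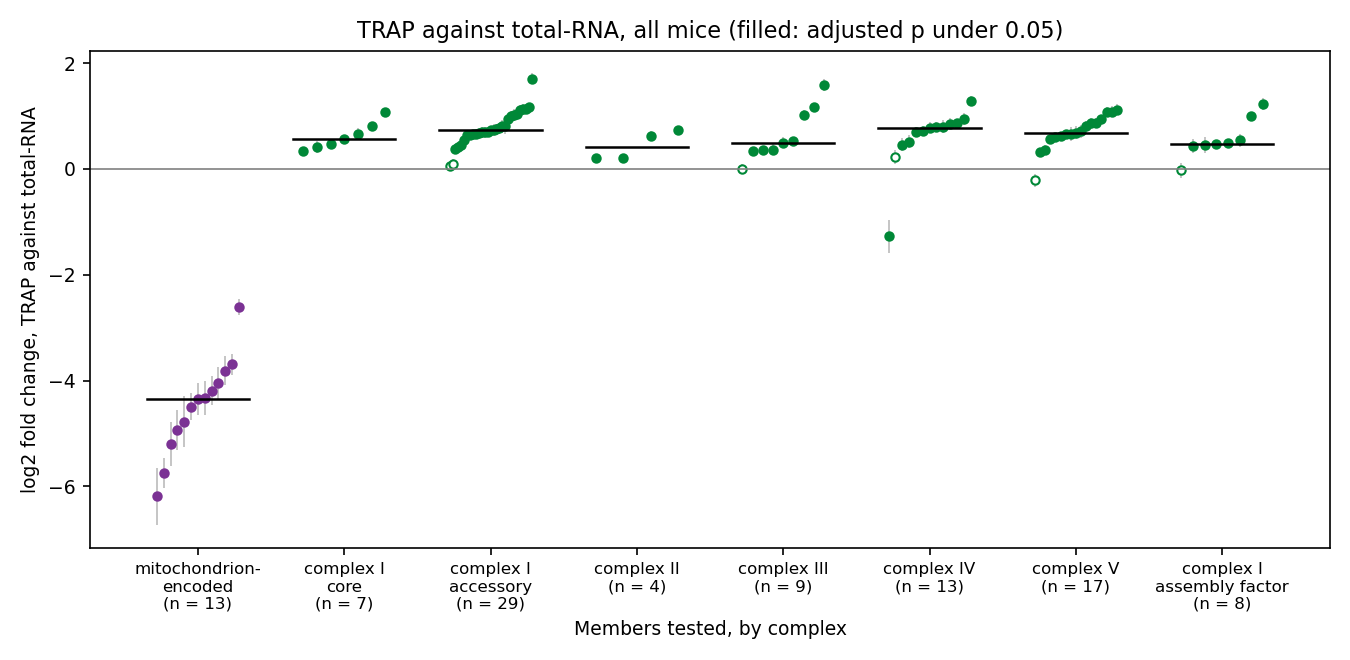
log2 fold change of TRAP against total-RNA over all mice for each of the 100 genes tested, by complex, with its SE and a bar at the median of each group (filled points: adjusted p under 0.05). All 13 mitochondrion-encoded genes lie between -6.19 and -2.61, and the medians of the nuclear groups lie between 0.41 and 0.78.

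The 6 nuclear genes with the smallest p among those higher in TRAP came from complexes I, III and V. Ndufa1 (chrX:37187588-37191163), a small accessory subunit of the complex I membrane arm, was at 72.6, 103 and 133 CPM in TRAP and 23.8, 31.6 and 39.8 in total-RNA (log2 fold change 1.71, SE 0.10, adjusted p = 4.86e-13). Ndufb10, another accessory subunit of that arm, was at 162, 190 and 221 CPM against 70.2, 81.7 and 109 (1.17, SE 0.08, adjusted p = 1.23e-12). For neither gene did the libraries of the 2 kinds overlap.

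Ndufs6, an accessory subunit that binds zinc, was at 56.5, 72.9 and 89 CPM against 28.2, 33.5 and 40.7 (1.12, adjusted p = 7.9e-12). Ndufs7, a core subunit that holds an iron-sulfur cluster next to the ubiquinone site, was at 83.8, 98.7 and 130 CPM against 40.9, 47.2 and 52.7 (1.07, adjusted p = 1.27e-11). Atp5g3, which encodes subunit c of the rotating ring of ATP synthase, was at 257, 299 and 341 CPM against 135, 157 and 178 (0.94, adjusted p = 5.32e-12). Uqcr11, the smallest subunit of complex III, was at 85.2, 145 and 195 CPM against 34.2, 51.8 and 65.3 (1.59, adjusted p = 1.64e-11). The TRAP libraries lay above all total-RNA libraries in each of these 4 genes as well.

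A set of core subunits followed. Ndufs1 and Ndufv1, which form the NADH-oxidising tip of complex I, had log2 fold changes of 0.34 (adjusted p = 7.25e-05) and 0.57 (adjusted p = 1.21e-07), at medians of 197 against 156 and 148 against 103 CPM. The complex III core protein Uqcrc1 and cytochrome c1 (Cyc1) had 0.33 and 0.53, at medians of 194 against 154 and 99 against 68.5 CPM. Cox5a of complex IV had 0.88, and the α and β subunits of ATP synthase, Atp5a1 and Atp5b, had 0.66 and 0.61, at medians of 937 against 608 and 1240 against 840 CPM. TRAP and total-RNA did not overlap for Atp5a1 (817 to 1230 against 549 to 757 CPM) or Atp5b (1030 to 1450 against 692 to 868), and overlapped for Ndufs1 (169 to 242 against 147 to 181) and Uqcrc1 (143 to 237 against 122 to 168).

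Complex II, the one complex without a mitochondrial gene, also serves the TCA cycle as succinate dehydrogenase. Its catalytic subunits Sdha and Sdhb had the smallest changes of the 4, each 1.15-fold (log2 fold change 0.20, adjusted p = 0.00186, and 0.21, adjusted p = 0.032), at 353 to 439 CPM against 301 to 366 and at 97.8 to 168 against 105 to 144. The membrane anchors Sdhc and Sdhd had 0.73 and 0.62. The call for Sdhb was lost in 7 of 16 alternatives, DESeq2 among them, with an adjusted p of up to 0.197, and that for Sdha in 1, without the filter on low counts (adjusted p = 0.123).

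Several complex IV subunits exist as a widely expressed form and a form typical of muscle or other tissues, and the pairs differed sharply in level. The common forms were well counted and higher in TRAP: Cox4i1 at 499, 600 and 798 CPM against 337, 367 and 443 (log2 fold change 0.71), Cox6a1 at 297, 381 and 498 against 126, 158 and 198 (1.29), Cox6b1 at 167, 204 and 269 against 94.4, 122 and 167 (0.80) and Cox8a at 246, 352 and 435 against 167, 197 and 224 (0.78). Cox7a2, Cox7a2l and Ndufa4 had 0.46, 0.52 and 0.72.

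Of the alternative forms only Cox6a2, the heart and skeletal muscle form, was tested. Its level was 0, 1.57 and 3.92 CPM in TRAP and 2.25, 4.28 and 5.43 in total-RNA (log2 fold change -1.27, SE 0.31, adjusted p = 0.000812), the one nuclear gene called lower, with overlapping libraries. At these levels it passed the filter mainly through its total-RNA reads, so that its call adds no support. The 7 nuclear genes below the filter were all of this kind: Cox4i2 had 431 reads over the 22 libraries, Ndufa4l2 227, Cox6b2 217, Cox7a1 146, Cox7b2 115, Cox8b 33 and Cox8c 0. The median of Cox4i2 was 0.218 CPM in TRAP and 1.32 in total-RNA.

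Per kilobase of exon, levels can be set side by side between genes. In total-RNA the highest median was that of mt-Cytb, 13226 CPM per kilobase, and the highest of a tested nuclear gene was that of Cox8a, 319. In TRAP the highest medians were 697 for mt-Co1 and 568 for Cox8a. Over the tested genes of each genome the median was 1038 (mitochondrial) and 40.8 (nuclear) CPM per kilobase in total-RNA and 137 and 66.1 in TRAP, so the levels of the 2 sets lay closer together in TRAP. The mitochondrial medians include the genes with few reads, at 6.41 to 46.8 in total-RNA, and are lowered by them. The medians of the well-counted mitochondrial genes ran from 862 to 13226 in total-RNA and from 19.4 to 697 in TRAP.

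Transcript length was read beside the difference between TRAP and total-RNA, because the nuclear members are short. Their median exon length was 1756 bases and that of all 12986 protein-coding genes tested 4706, and length and log2 fold change ran in opposite directions in both (Spearman's rho -0.26 and -0.20, across genes, which are not independent replicates). Among genes under 1000 bases the median log2 fold change was 0.78 for 19 members, of which 94.7% were higher, and 0.55 for 196 other protein-coding genes, of which 58.2% were. At 1000 to 2000 bases the medians were 0.71 (34 members) and 0.36 (1140 genes), at 2000 to 4000 bases 0.57 (23) and 0.15 (3748), and at 4000 bases or more 0.61 (11) and -0.08 (7802). The members' median was the higher one in each of the 4 length classes.

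Promoters of these genes are known for binding sites of nuclear respiratory factor 1 (NRF1), a transcription factor that takes its name from this pathway. RefSeq promoter windows of GRCm38.p6 (mm10), from 250 bases before to 50 after a start site, were matched for 74 of the 94 nuclear genes (79 windows). The NRF1 core, the 10 bases set in capitals in Cox6a1, Atp5k and Ndufa11, which read the same on both strands, was in 7 windows (8.86%) and in 0.971% of all 32851 windows. The genes were Atp5g2, Atp5k, Cox6a1, Ndufa11, Ndufaf4, Ndufaf5 and Uqcrc1. Each was called higher in TRAP, as were most nuclear genes tested here and 35.8% of all genes. An 11-base motif of the factor YY1, searched on both strands, was in 5 windows (6.33% against 0.633%), those of Ndufa9, Ndufaf8, Ndufs4, Ndufs6 and Ndufs7, and TATAAA was in 8 (10.1% against 13.6%). A match describes letters and not binding, which was not measured here. Shown with the NRF1 core in capitals are 60 bases of Cox6a1 (chr5:115349086-115349145, minus strand, the core beginning 162 bases before the start site), Atp5k (chr5:108434415-108434474, minus strand, 50 bases before) and Ndufa11 (chr17:56717677-56717736, plus strand, 60 bases before), one gene each of complexes IV, V and I, and, with the YY1 motif in capitals, 30 bases of Ndufs7 (chr10:80249464-80249493, plus strand, the motif beginning 24 bases after the RefSeq start site).
Cox6a1: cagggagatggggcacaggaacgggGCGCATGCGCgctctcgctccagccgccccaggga
Atp5k: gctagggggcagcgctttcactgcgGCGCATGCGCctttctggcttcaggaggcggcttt
Ndufa11: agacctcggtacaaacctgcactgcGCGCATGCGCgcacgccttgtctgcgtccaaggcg
Ndufs7: gccgaggccAAGATGGCGGCgctggcgggt

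Other nuclear genes that serve mitochondria are given beside the 35.8% of all genes that were higher and the 33.7% that were lower. Of 77 tested proteins of the mitochondrial ribosome, 60 were higher in TRAP and 2 lower (Mrps22, -0.32, and Mrps27, -0.21), with a median log2 fold change of 0.51. Of 37 assembly factors outside the symbols above, 26 were higher and 2 lower (Acad9, -0.43, and Sco2, -0.38), with a median of 0.43, the largest being that of Cox14 (1.43), which acts in complex IV assembly. Of 17 genes of pyruvate dehydrogenase and the TCA cycle, 5 were higher and 3 lower, with a median of 0.03. Among these were the succinyl-CoA ligase subunits Suclg1 (0.54) and Suclg2 (-2.95), while citrate synthase (Cs) was at 0.02.

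The regulators of mitochondrial gene expression were read against the same shares. Of 16, 8 were higher in TRAP and 2 lower, Gabpa (-0.31) and the coactivator Ppargc1a (-0.28). The nuclear receptor Esrra had the largest difference (log2 fold change 2.10), the mitochondrial helicase Twnk had 1.01, the mitochondrial transcription factor Tfb2m 0.78 and Nrf1 0.56. Tfam, which packages mitochondrial DNA, had 0.20 (adjusted p = 0.0833).

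Within each treatment the contrast between the genomes was the same in direction (counts of mitochondrial genes include the 5 with few reads). In Control (3 mice), 69 nuclear genes were higher and 1 lower and 13 mitochondrial genes lower, with medians of 0.57 and -4.61, where 59.9% of all genes were called, 29.5% higher and 30.4% lower. In EtOH (4 mice), 69 were higher, 0 lower and 13 mitochondrial genes lower (0.72 and -4.33, where 50.7% of all genes were called, 24.3% higher and 26.5% lower), and in EtOH+ABT-888 (4 mice), 61 were higher, 0 lower and 13 mitochondrial genes lower (0.69 and -4.24, where 41% were called, 19.5% higher and 21.5% lower). In EtOH+ABT-888 the number of nuclear genes called higher fell to 31 without mouse 11. The share of all genes called fell too, to 26.3%. The TRAP library of this mouse had the highest sum of glial and vascular markers. The calls of the well-counted mitochondrial genes held without any one mouse.

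For single mitochondrial genes the log2 fold change of TRAP against total-RNA in Control, EtOH and EtOH+ABT-888 was -3.76, -3.80 and -3.57 for mt-Co1, -4.73, -4.37 and -4.07 for mt-Cytb, and -2.34, -3.06 and -2.39 for mt-Nd6. An interaction term fitted over all 22 libraries asked whether EtOH acted differently in the 2 pools. No member passed by edgeR (0 of 100, background 0.0213%), 5 had an unadjusted p under 0.05 (4.87% of all genes did), all of them nuclear and relatively higher in TRAP, and DESeq2 also gave 0. The interaction estimate for mt-Nd6 was -0.71 (SE 0.35, adjusted p = 1).

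With EtOH, 5 nuclear members were lower in total-RNA. EtOH_total-RNA against Control_total-RNA (4 and 3 mice) called 5 of 100 genes, all lower, where 17.6% of all genes were called and 8.6% were lower, and 22 had an unadjusted p under 0.05 (33.9% of all genes). They were the δ and ε subunits of the ATP synthase central stalk (Atp5d, Atp5e), the complex III subunit Uqcr11, the complex I accessory subunit Ndufb2 and the complex I core subunit Ndufs8. The first 4 were named by the rule and Ndufs8 after its values were seen. Over the 87 nuclear genes the median log2 fold change was -0.12, with 26 of the 87 above 0, and that of all genes was 0.001.

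Atp5d (chr10:80138632-80145818) was at 114, 109 and 95.6 CPM in Control_total-RNA (mice 1, 4 and 7), at 68.1, 77.9, 89.1 and 67.8 in EtOH_total-RNA (mice 2, 5, 8 and 9) and at 94.6, 84.1, 83.7 and 80.2 in EtOH+ABT-888_total-RNA (mice 3, 6, 10 and 11). The log2 fold change with EtOH was -0.48 (SE 0.12, adjusted p = 0.0169). The 4 EtOH libraries lay below the 3 Control libraries, and so did the 4 with ABT-888. Against Control the latter had -0.31 (adjusted p = 0.212).

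Uqcr11 (chr10:80402997-80406830) was at 65.3, 55.1 and 55.4 CPM in Control_total-RNA, 39.2, 34.2, 51.8 and 40.5 in EtOH_total-RNA and 53.2, 40.3, 46.7 and 51.9 in EtOH+ABT-888_total-RNA (-0.50 with EtOH, SE 0.14, adjusted p = 0.0285, and -0.29 with both agents, adjusted p = 0.315). Ndufb2 (chr6:39592574-39603382) was at 27.7, 30.3 and 35.9 CPM in Control, 16.8, 16.4, 26.4 and 24.3 in EtOH and between 17.4 and 24.7 in EtOH+ABT-888 (-0.58, SE 0.18, adjusted p = 0.0413, and -0.49, adjusted p = 0.183). In both genes every treated library lay below the Control libraries.

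Ndufs8 was at 68.7, 60.8 and 62 CPM in Control_total-RNA and at 42, 48.8, 58.2 and 43.5 in EtOH_total-RNA (-0.40, SE 0.13, adjusted p = 0.0423), without overlap. Atp5e was at 66, 51.6 and 61.7 CPM against 38.5, 35.8, 52.7 and 44.4 (-0.48, SE 0.14, adjusted p = 0.0365), and here mouse 8 of the EtOH group lay above mouse 4 of Control. In TRAP the same contrast gave -0.26 for Atp5d, -0.09 for Uqcr11, -0.48 for Atp5e, -0.58 for Ndufb2 and 0.18 for Ndufs8, with adjusted p of 0.382, 0.847, 0.136, 0.112 and 0.612.

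**Figure D5:**
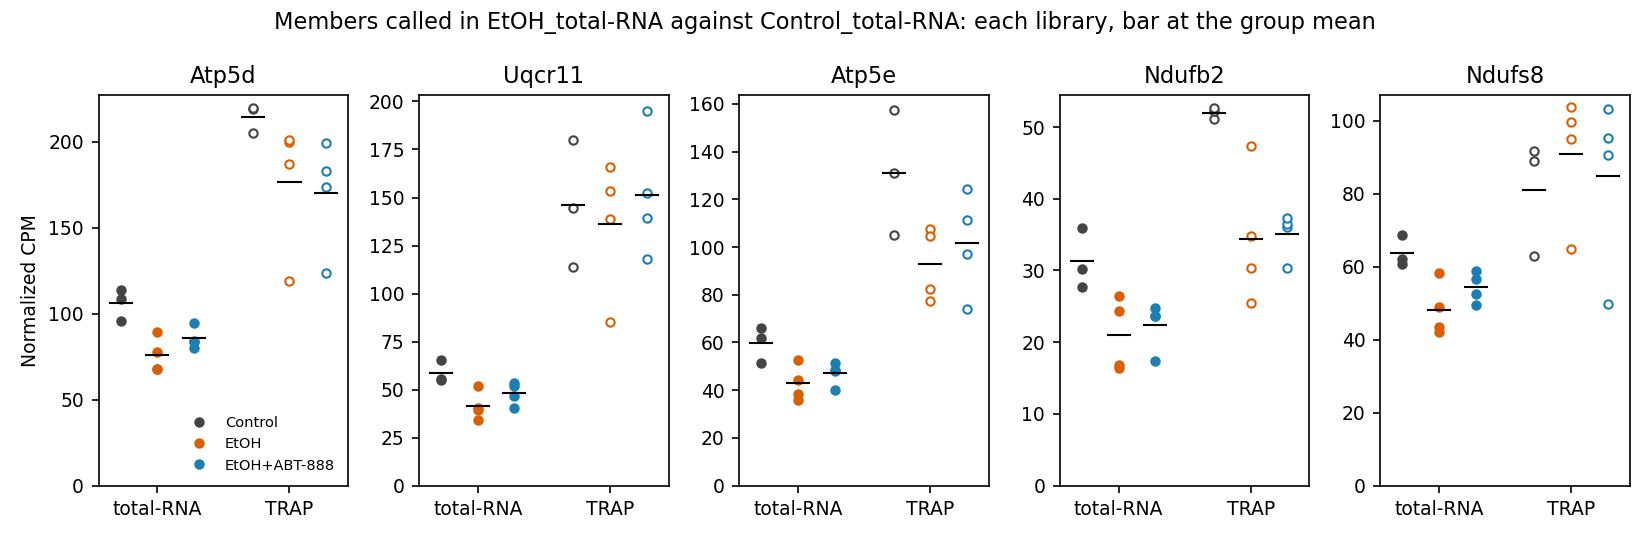
Normalized CPM of the 5 genes called lower in EtOH_total-RNA than in Control_total-RNA, in each library of the 3 treatments, total-RNA (filled) and TRAP (open), with bars at the group means. In total-RNA the EtOH libraries lie below the Control libraries in every gene but Atp5e, where 52.7 and 51.6 CPM cross.

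The number of calls moved with the libraries, for these genes as for all genes. Without mice 1, 4 or 7 of Control, 0, 0 and 1 members were called, where 6.7%, 6.24% and 8.71% of all genes were. Without mice 2, 5, 8 or 9 of EtOH, 3, 3, 12 and 5 members were called, of which 1, 1, 5 and 4 were among the 5 lower genes, where 14.9%, 11.6%, 15.5% and 25.7% of all genes were. Atp5d was called in 10 of 13 alternatives, Uqcr11, Atp5e and Ndufb2 in 7 and Ndufs8 in 6. Cell-type markers moved in the same comparison: 5 of 6 microglia markers were lower with EtOH in total-RNA (median log2 fold change -1.61), their sum being 229 to 240 CPM in Control and 77.4 to 113 in EtOH, and 3 of 6 excitatory markers were lower (-0.35). Of the other markers, 6 of each type, Aqp4 was lower and Gfap higher among those of astrocytes, Flt1 and Rgs5 were lower among those of endothelium and pericytes, Mobp was higher among those of oligodendrocytes and Gad2 among those of inhibitory neurons. The part of these markers in the result was not tested, and between bulk samples of different mice fewer cells of a type and less RNA per cell cannot be told apart. Of the other lists, read against the 8.6% of all genes that were lower and the 9.04% that were higher, 6 of 77 mitochondrial ribosomal proteins were lower and 1 higher (median -0.14), 6 of 37 assembly factors lower and 1 higher (-0.12), 1 of 16 regulators lower (-0.03) and 1 of 17 genes of pyruvate dehydrogenase and the TCA cycle lower (-0.04).

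No mitochondrion-encoded gene was called with EtOH in total-RNA. mt-Co1 came nearest, at 13508, 12330 and 13838 CPM in Control and 14743, 15678, 17339 and 16481 in EtOH (log2 fold change 0.28, SE 0.10, adjusted p = 0.0756), with all EtOH libraries above the Control libraries, and it was called by DESeq2 and, together with mt-Nd4l, in the absence of mouse 2. With ABT-888 the 4 libraries were at 12817, 13077, 20098 and 16196 CPM. The difference of mt-Cytb was -0.10 (adjusted p = 0.746) and that of mt-Nd6 0.19 (adjusted p = 0.207).

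In the other comparisons of treatments no member was called by edgeR's quasi-likelihood test. For EtOH_TRAP against Control_TRAP it was 0 of 100 (background 5.24%), with 15 at an unadjusted p under 0.05 (23.1% of all genes), while DESeq2 called Cox7a2l, Uqcrc1 and Uqcrc2 and exactTest the first 2 of these. For EtOH+ABT-888 against Control it was 0 in TRAP (background 0.476%), with 2 at an unadjusted p under 0.05 (12.1% of all genes), and 0 in total-RNA (background 0.263%), with 7 at an unadjusted p under 0.05 (15.9%). DESeq2 called 1 of them, Ndufb2 in TRAP, and exactTest 0.

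Ndufb2 was thus the member with the smallest adjusted p of EtOH+ABT-888 against Control in both pools (0.18 in TRAP, log2 fold change -0.56, and 0.183 in total-RNA). EtOH+ABT-888 against EtOH called 0 members in TRAP and 0 in total-RNA (background 0% in each), with 0 at an unadjusted p under 0.05 in either (0.966% and 1.9% of all genes) and 0 by DESeq2 or exactTest. Among the 8 well-counted mitochondrial genes the largest differences there were 0.42 (SE 0.28) for mt-Nd6 in TRAP and 0.55 (SE 0.27) for mt-Nd3 in total-RNA, each with an adjusted p of 1. EtOH and EtOH+ABT-888 were each compared with the same Control libraries, so these results are not independent.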

How the data were processed

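Total-RNA and TRAP libraries of 11 mice were rRNA-depleted and sequenced by the authors as paired reads of 50 bases, aligned to mm10 with STAR and counted with featureCounts on Ensembl genes, non-coding ones included. The authors deposited raw counts, which are whole reads per gene without normalization. Tool versions, the handling of multi-mapping reads, the strand setting and any use of molecular identifiers are not given in the sources used here. The groups and mouse numbers are those of the labels.

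Gene symbols, positions and lengths came from GENCODE M21 (38872 of 39056 identifiers found, 184 not). Counts were tested in R 4.3.3 with edgeR 4.0.16 (glmQLFit and glmQLFTest, TMM factors, 14072 genes after the authors' filter of at least 500 counts and 3 libraries), and p-values were adjusted by the Benjamini-Hochberg method. TRAP against total-RNA over all mice had treatment as a term, other comparisons used the groups compared, and the interaction used all 22 libraries. Ratios and shares use raw counts, and levels use normalized CPM. Some genes overlap a gene on the opposite strand (34 of the 100 tested, among them Atp5a1, Atp5d, Cox4i1, Cox5a, Cox6a2, Ndufb2, Ndufs1, Ndufs6, Sdha, mt-Co1, mt-Nd5 and mt-Nd6), and members with near-identical pseudogenes may share reads with them, so these counts are less certain. The test was checked on simulated data.

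The labels give each library its animal, so the mouse number pairs the libraries. After group means were removed, the TRAP and total-RNA libraries of a mouse correlated across genes in 11 of 11 mice, with r of 0.102 to 0.622 (median 0.326). Alternatives were DESeq2 1.42.0, exactTest, RLE factors, library sizes without the mitochondrial chromosome, no filter, the mouse as a block, one fit of all libraries, and leaving out each mouse. The genes, lists and tests were chosen with earlier results of these data known. Named were all mitochondrial genes, up to 6 nuclear genes with the smallest p in each direction between TRAP and total-RNA (6 higher, and the 3 with a negative estimate), up to 4 called genes per comparison of treatments, tissue isoforms, and a set of core subunits.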

Additional observations from a re-analysis of the deposited data

Results flagged for a closer look

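In 168 groups of 4 libraries, each holding one gene or share, the library farthest from the others was set against the group's range, and 7 stood apart by Dixon's criterion, where chance gives about 1 in 20 groups. In EtOH_TRAP, Atp5d was at 119 CPM in mouse 5 and 187 to 201 in the other mice, Cox7a2l at 75.7 in mouse 2 and 119 to 127 in the others, and Ndufa4 at 373 in mouse 8 and 272 to 281 in the others. Also in EtOH_TRAP, mt-Co2 was at 1.23 CPM in mouse 2 and 0 to 0.147 in the others, and mt-Co3 at 0.407 in mouse 9 and 0.0463 to 0.0981 in the others, from 17 and 6 reads in those libraries. In mouse 6 of EtOH+ABT-888, Cyc1 in TRAP was at 79.1 CPM (99.8 to 102 in the others) and Ndufb2 in total-RNA at 17.4 (23.6 to 24.7 in the others).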

How the results depend on the processing

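The lower level of the well-counted mitochondrial genes in TRAP held in every alternative tried over all mice, in which 93 to 95 of 100 members were called (41.2% to 74.7% of all genes). The 5 with few reads were lower as well, but add no support, because they passed the filter of the main fit through total-RNA reads alone. With the mouse as a replicate block 95 members were called over all mice, 88 in Control, 90 in EtOH and 90 in EtOH+ABT-888, against 94, 83, 82 and 74 without it, while the share of all genes called rose to 74.7%, 62.5%, 58.8% and 54.3% from 69.5%, 59.9%, 50.7% and 41%, and this pairing changed no call of a named gene. Without each mouse in turn the counts were 93 to 94 over all mice, 66 to 83 in Control, 75 to 79 in EtOH and 44 to 72 in EtOH+ABT-888 (44 without mouse 11), and the log2 difference of the mitochondrial to nuclear ratio was -4.93 to -4.73. The estimate for Ndufaf1, never called, was -0.07 to 0.05 without each mouse, and above 0 without mice 7, 8, 10 and 11 (0.01, 0.01, 0.05 and 0.02). Without the filter the median of all genes between TRAP and total-RNA was -0.22, and 77 nuclear members were higher and 3 lower (41.2% of all genes were called). For EtOH_TRAP against Control_TRAP, DESeq2 called 3 members (10.8% of all genes), exactTest 2 (9.7%), no filter 1 (6.13%) and one fit of all libraries 3 (Atp5s, Ndufv1 and Uqcrc1, 8.46%), and leaving out mice gave 0 to 2 (0.597% to 11%). For EtOH_total-RNA against Control_total-RNA, no filter gave 8 (12.8% of all genes were called), one fit of all libraries 0 (1.07%) and leaving out mice 0 to 12 (6.24% to 25.7%). For EtOH+ABT-888_TRAP against Control_TRAP, DESeq2 called 1 (2.98%). Leaving out mice from the pooled ratios of the mitochondrial genes with few reads was chosen after seeing the data. The causes of these differences were not tested. The remaining comparisons of treatments gave 0 members without any one mouse. The 5 mitochondrial genes with fewest reads had 3 (mt-Atp8) to 124 (mt-Nd4l) reads in all of TRAP, so their ratios are the least precise.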
